A study of Caenorhabditis elegans with 154 samples.

Results

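The transthyretin-related (*ttr*) genes of *C. elegans* were followed in single larvae of the first stage (L1) that had hatched without food at 4 densities. Members were all genes whose WormBase symbol is *ttr* followed by a number, with the rows of a gene's isoforms added, which gave 59 genes among the 46700 in the tables. Of these, 58 are annotated as protein coding and *ttr-4* as a pseudogene, and they lie on chromosome V (22 genes), X (12), III (10), IV (10), I (3) and II (2) of the ce11 genome build. The rule used symbols only and no measured value.

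The family is large in nematodes. Its members encode small proteins, most with a signal for secretion, whose predicted fold resembles that of transthyretin, the vertebrate blood protein that carries thyroid hormone and retinol. A few have a described function in the worm: TTR-52 is secreted and bridges phosphatidylserine on dying cells to the engulfment receptor CED-1, and TTR-33 protects dopaminergic neurons from oxidative stress. For most of the others no function is known, so the roles below are given only where one is described.

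Embryos came from bleached adults of 2 backgrounds. N2 is the Bristol wild type, and *fog-2(q71)* is a mutant whose XX animals make no sperm, so that its embryos came from matings of males with these "females". Embryos were left in M9 buffer with polyethylene glycol and no bacteria at a density of 1, 5, 20 or 100 eggs/μL overnight, and single L1s were then lysed. The tables hold 14, 22, 20 and 24 *fog-2* animals and 13, 22, 16 and 23 N2 animals at these densities, 80 and 74 in all. Each library came from a whole larva, so fewer cells of a type and less RNA per cell cannot be told apart. Nothing states whether animals of 1 density shared a tube, and p-values therefore measure the spread between these animals.

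Values are tpm, the estimated number of a gene's transcripts after each animal's total is scaled to the same sum. The deposited expression tables hold no read counts, so no counting interval is given, and the number of genes at 1 tpm or more stood in for the depth of an animal. It ran from 7234 to 17869 per animal, with a median of 11565 in *fog-2* animals at 1 egg/μL and of 13260 at 100 eggs/μL, against 9827 and 10291 in N2. Markers of muscle, pharynx, intestine, epidermis and neurons were above 0 in every group. Markers of oocytes and early embryos moved with density in *fog-2*. The summed level of their 11 genes had a median of 13.9 tpm (lowest 0.0, highest 36.4) at 1 egg/μL and of 55.8 tpm (9.40 to 391) at 100 eggs/μL. In N2 the medians were 13.1 tpm at 1, 28.1 tpm at 5 and 18.4 tpm at 100 eggs/μL. Of the 11 genes, 6 were called higher with both strains together, 5 in *fog-2* alone and 0 in N2 alone. Of all 16445 genes tested, 1701 were called higher with both strains, 927 in *fog-2* and 13 in N2. The 3 germ cell markers had 0 calls and a median log2 change of -0.28 with both strains. The 3 glia markers had a summed median of 15.4 tpm at 1 egg/μL, 31.0 tpm at 5 and 25.6 tpm at 100 eggs/μL in *fog-2*, and of 10.0, 20.4 and 15.8 tpm in N2, with *ptr-10* at 0 in every N2 animal at 1 egg/μL. Of these 3 genes 1 was called higher at 100 than at 1 egg/μL with both strains and in *fog-2* alone, 0 in N2 alone and 0 between 1 and 5 eggs/μL. The part of library content and of these markers in the results below was not tested beyond the fits named there.

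The *ttr* genes made up a visible share of the larval transcriptome. Summed over the 59 genes, an animal held 6426 to 30980 tpm, which was 0.643 to 3.1% of its transcripts. The median sum in *fog-2* was 12550 tpm at 1 egg/μL, 15770 tpm at 5, 15530 tpm at 20 and 13580 tpm at 100 eggs/μL. In N2 the medians were 13050, 14930, 11900 and 14250 tpm in the same order. In both strains the median was thus above that at 1 egg/μL at 5 and at 100 eggs/μL, with ranges that overlapped between all densities; the sum was not tested.

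Levels differed widely between members. *ttr-16*, a gene of chromosome IV with no described role, had a mean of 5460 tpm and gave 36.2% of the family's transcripts. The 8 highest genes, *ttr-16*, *ttr-24* (1248 tpm), *ttr-15* (1103 tpm), *ttr-27* (875 tpm), *ttr-26* (665 tpm), *ttr-29* (580 tpm), *ttr-33* (540 tpm) and *ttr-21* (481 tpm), gave 72.7%. A mean of at least 100 tpm was reached by 19 genes and of at least 10 tpm by 41, and 13 genes were above 0 in every animal. At the other end, 11 genes (*ttr-9*, *ttr-11*, *ttr-12*, *ttr-13*, *ttr-14*, *ttr-19*, *ttr-42*, *ttr-55*, *ttr-56*, *ttr-57* and *ttr-58*) had means of 0.112 to 1.02 tpm and reached 1 tpm in 3 to 17 animals, with 46.3 tpm as the highest single value. These 11 did not pass the minimum of 1 tpm in 13 of the 74 animals at 1 and 100 eggs/μL, and the tests below cover the other 48. A value of 0 in a library from 1 larva does not show that a gene is silent.

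**Figure D1:**
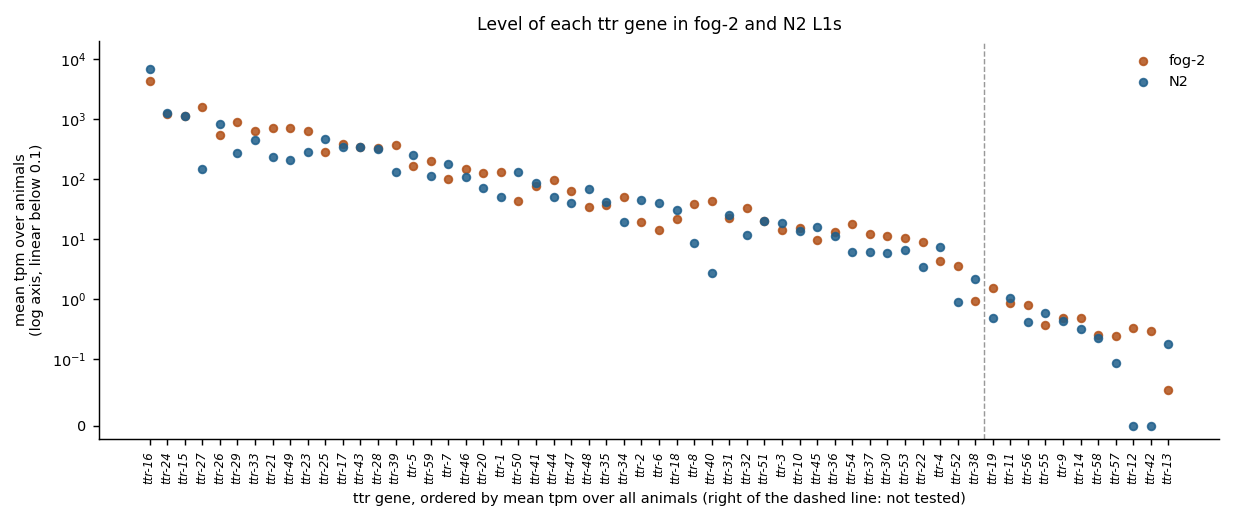
Mean level of each *ttr* gene in tpm (log axis, linear below 0.1) over the animals of *fog-2* (orange) and N2 (blue), ordered by the mean over all animals. The order runs from *ttr-16* at 5460 tpm to *ttr-13* at 0.112 tpm, and the 11 genes right of the dashed line were not tested.

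The order of levels was much alike in the 2 strains: across the 59 genes Pearson's r of the log2 means was 0.949 and Spearman's rho of the means 0.943, as a description, since genes are not independent replicates. Of the 10 highest genes in each strain, 6 were shared. *ttr-15* had means of 1105 tpm in *fog-2* and 1101 tpm in N2, and *ttr-24* of 1224 and 1275 tpm. The largest ratios between the strains, among genes above 10 tpm, were those of *ttr-40*, with 43.0 tpm in *fog-2* and 2.71 tpm in N2, and *ttr-27*, with 1547 and 148 tpm. These 2 genes were picked out after their values were seen. The strains are held in separate tables, so strain and run cannot be told apart, and levels were not tested between them.

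Many of the genes lie next to each other. Within 10 kb of another member were 30 of the 59, in 12 neighbor groups, among them *ttr-1* to *ttr-4* on chromosome III (9916190 to 9930413), *ttr-24*, *ttr-25* and *ttr-26* on V (18555387 to 18560288), *ttr-27*, *ttr-28* and *ttr-29* on V (12903550 to 12906832), and *ttr-30* with *ttr-59* on X (7329818 to 7331839). In 2 groups, *ttr-11*, *ttr-12* and *ttr-57* on V and *ttr-55*, *ttr-56* and *ttr-58* on I, every gene was among those too low to test. RSEM shares reads between similar transcripts by estimation, so values of close copies may be split with error. Exons of *ttr-16* overlap *lin-3* and those of *ttr-50* overlap *rbm-17* on the opposite strand, and *ttr-33* overlaps *txt-5* on the same strand. Exons of *ttr-7*, *ttr-8*, *ttr-32*, *ttr-39*, *ttr-43*, *ttr-44*, *ttr-47* and *ttr-51* also overlap a gene on the opposite strand, as do those of some untested members. The library protocol keeps no strand, so reads in these overlaps cannot be assigned to 1 gene by strand.

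The main question of the series was which genes differ between crowded and sparse arrest. With both strains together (74 animals), 5 *ttr* genes were higher and 1 lower at 100 than at 1 egg/μL: *ttr-15*, *ttr-5*, *ttr-3*, *ttr-59* and the pseudogene *ttr-4* rose, and *ttr-28* fell. The call of *ttr-4* is that of a gene that entered the test mostly through the animals at 100 eggs/μL, and it was lost without the filter on low values. The test was limma on log2(tpm + 1). The fit held a term for strain, and a gene was called at an adjusted p under 0.05 over the 16445 genes tested. These 6 of 48 are 12.5% of the members tested, and 12.4% of all genes passed the same test, so the share of members called was close to that of all genes. Of the genes called, 1701 of 2039 were higher, and 2.06% of all genes were lower. The median log2 change was 0.40 over the 48 *ttr* genes and 0.24 over all genes, and 35 of the 48 (72.9%) had a positive change against 69.8% of all genes. The changes of single genes below stand against this general shift of 0.24. The shift was 0.035 after quantile normalization, where 403 genes were called higher and 391 lower, and all 6 *ttr* genes but *ttr-4* were still called.

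*ttr-15* (T07C4.5, chromosome III, 10337847 to 10339440) showed the smallest adjusted p of the family. In *fog-2* the lowest, median and highest levels were 221, 459 and 1332 tpm at 1 egg/μL and 434, 1332 and 2090 tpm at 100 eggs/μL. In N2 they were 248, 555 and 2070 tpm and 531.6, 926 and 4554 tpm. The ranges overlapped in both strains, with the lower values at 1 egg/μL. The log2 change was 1.09 (SE 0.19), or 2.12-fold (limma, adjusted p = 6.2e-05). It was 1.26 (SE 0.22, adjusted p = 0.000279) in *fog-2* alone and 0.90 (SE 0.32, adjusted p = 0.315) in N2 alone, and the difference between strains was 0.37 (SE 0.39, adjusted p = 0.912). Its first step, between 1 and 5 eggs/μL, passed on its own, and the medians there went from 459 to 1006 tpm in *fog-2* and from 555 to 803 tpm in N2. The call held in all 12 alternatives, with adjusted p between 8.03e-06 and 0.0327. Not all of these were separate fits of new values. Keeping isoform rows apart left the values of every *ttr* gene unchanged, and the stricter threshold used the same fit. In *fog-2* alone it was lost with animals averaged by the digit that follows the density in their names, whose meaning the labels do not give (1.16, adjusted p = 0.0764).

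*ttr-5* (C40H1.5, chromosome III, 9330316 to 9330928) was lower in level and also rose. Its lowest, median and highest levels in *fog-2* were 27, 73.7 and 199 tpm at 1 egg/μL and 63.6, 184 and 380 tpm at 100 eggs/μL. In N2 they were 19.4, 152 and 420 tpm and 5.39, 313 and 629 tpm. The groups overlapped in both strains, and the lowest N2 animal was at 100 eggs/μL. The log2 change was 0.94 (SE 0.27, limma, adjusted p = 0.0133), with 1.16 (SE 0.27, adjusted p = 0.00612) in *fog-2* and 0.70 (SE 0.46, adjusted p = 0.565) in N2. The call of both strains was lost with the number of detected genes as a covariate (0.89, adjusted p = 0.0845), without the animals of name digit 3 (0.92, adjusted p = 0.187) and with animals averaged by digit (1.10, adjusted p = 0.0739). The call in *fog-2* alone was lost with this covariate (1.18, adjusted p = 0.0511) and with animals averaged by digit (1.21, adjusted p = 0.0913).

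*ttr-59* (T08A9.11, X, 7329818 to 7330669) had its lower medians at 1 egg/μL in both strains. In *fog-2* the lowest, median and highest were 11.7, 94.3 and 733 tpm at 1 egg/μL and 68.4, 168 and 543 tpm at 100 eggs/μL. In N2 they were 13.9, 67.2 and 146 tpm and 14.8, 102 and 882 tpm. The *fog-2* animal with the highest level of all was at 1 egg/μL, so the groups overlapped throughout. The change was 0.92 (SE 0.27, limma, adjusted p = 0.0174). In each strain alone it did not pass, at 0.93 (SE 0.34, adjusted p = 0.0794) for *fog-2* and 0.90 (SE 0.43, adjusted p = 0.443) for N2. The same 3 alternatives as for *ttr-5* ended the call while the change stayed near its size, at 0.98 (adjusted p = 0.0577), 0.78 (adjusted p = 0.24) and 1.05 (adjusted p = 0.149). Its neighbor *ttr-30* had a log2 change of 1.08 (SE 0.44, adjusted p = 0.0905), which did not pass.

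**Figure D2:**
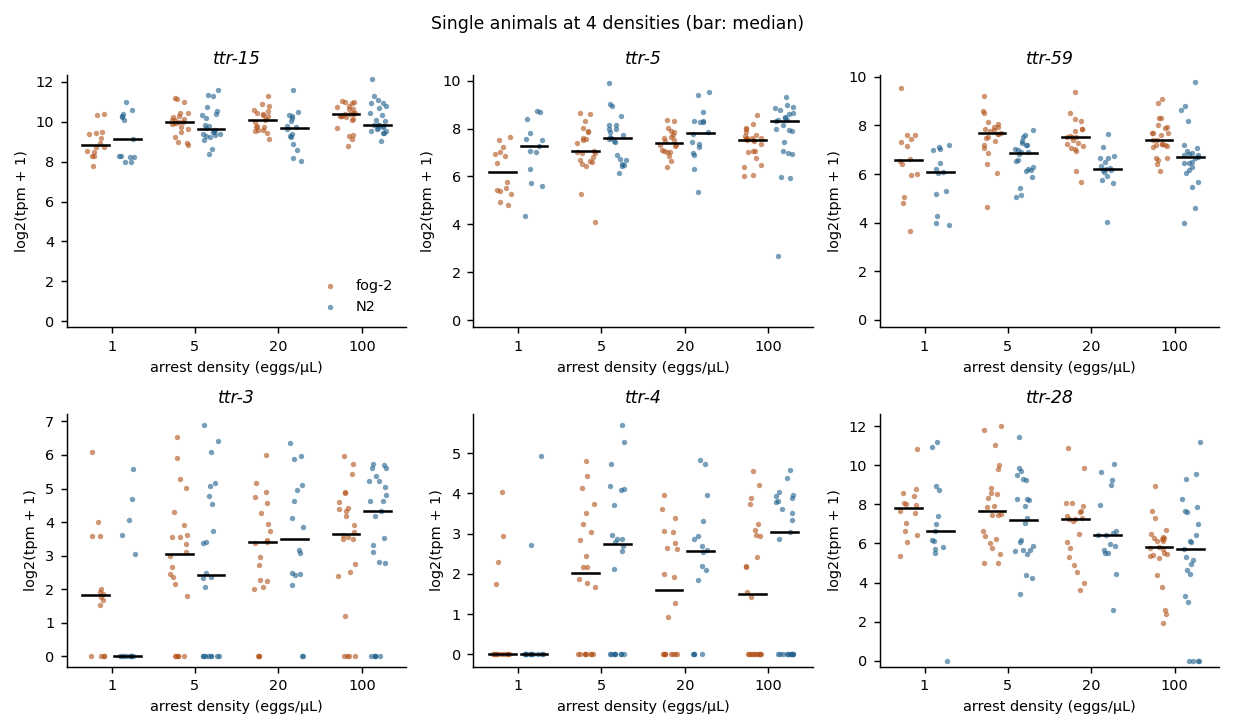
Level of the 6 *ttr* genes called between 100 and 1 egg/μL, as log2(tpm + 1), in single *fog-2* (orange) and N2 (blue) animals at the 4 densities, with the median as a bar. For *ttr-15* the *fog-2* medians rise from 459 to 1332 tpm, for *ttr-28* they fall from 228 to 54.5 tpm, and for *ttr-3* and *ttr-4* many animals sit at 0.

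*ttr-3* and *ttr-4*, neighbors on chromosome III, were low, and in many animals they were listed at 0. *ttr-3* (K03H1.3, 9925530 to 9926750) was above 0 in 10 of 14 *fog-2* animals at 1 egg/μL and 20 of 24 at 100 eggs/μL, and in 5 of 13 and 18 of 23 N2 animals. Its medians were 2.54 and 11.6 tpm in *fog-2* and 0.0 and 19.2 tpm in N2, with highest values of 66.4, 61.0, 46.8 and 52.2 tpm. The median was higher at 100 eggs/μL in each strain while the highest values lay close together. The log2 change was 1.61 (SE 0.47, limma, adjusted p = 0.0149), with 1.31 (SE 0.59, adjusted p = 0.176) in *fog-2* and 1.94 (SE 0.72, adjusted p = 0.33) in N2. It did not pass with detected genes as a covariate (1.62, adjusted p = 0.0681) or without name digit 3 (2.18, adjusted p = 0.0795), where the change was as large or larger. With many animals at 0 the log2 change depended on the pseudocount, and it ran from 0.68 with a pseudocount of 10 to 2.50 with one of 0.1. Mean levels went from 8.46 to 16.6 tpm in *fog-2* and from 8.14 to 21.5 tpm in N2.

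*ttr-4* (F40F12.1, 9916190 to 9916657), the pseudogene, was above 0 in 4 of 14 *fog-2* animals at 1 egg/μL and 13 of 24 at 100 eggs/μL, and in 2 of 13 and 13 of 23 N2 animals. The highest values were 15.4 and 22.6 tpm in *fog-2* and 29.6 and 22.8 tpm in N2. With so few animals above 0 at 1 egg/μL, it passed the filter on low values mainly through the group in which it was higher, and with no filter it did not pass (1.16, adjusted p = 0.0643). Its change of 1.16 (SE 0.40, limma, adjusted p = 0.04) kept the call in only 4 of 12 alternatives, with adjusted p between 0.0156 and 0.244. Among those 4 was the one with isoform rows kept apart, where its values were unchanged. Leaving out the 2 N2 animals at 100 eggs/μL that correlated least with their group gave 1.08 (adjusted p = 0.0553). The other genes of this neighbor group did not pass at 100 eggs/μL: *ttr-1* had a change of -0.07 (adjusted p = 0.914) and *ttr-2* of 0.47 (adjusted p = 0.632).

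*ttr-28* (R90.3, V, 12904213 to 12905174) was the gene that fell. In *fog-2* the lowest, median and highest levels were 39.5, 228 and 1793 tpm at 1 egg/μL, 31.2, 206 and 4188 tpm at 5, 11.1, 151 and 1873 tpm at 20, and 2.87, 54.5 and 497 tpm at 100 eggs/μL. In N2 they were 0.0, 99.3 and 2313 tpm, 9.80, 146 and 2798 tpm, 5.09, 85.9 and 1070 tpm, and 0.0, 52 and 2365 tpm. At 100 eggs/μL 4 N2 animals were listed at 0 and 1 reached 2365 tpm, so the N2 groups overlapped over their whole range. The *fog-2* animals at 100 eggs/μL lay lower as a group, with the highest of them at 497 tpm.

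The log2 change of *ttr-28* was -1.84 (SE 0.54, limma, adjusted p = 0.017), with -2.10 (SE 0.48, adjusted p = 0.00564) in *fog-2* and -1.57 (SE 0.96, adjusted p = 0.537) in N2. It lies between *ttr-27* and *ttr-29*, whose changes did not pass, at -0.07 (SE 0.35, adjusted p = 0.931) and -0.01 (SE 0.38, adjusted p = 0.995). These changes are set side by side because *ttr-28* was called, and their difference was not tested. Split by this name digit, the change was negative in 5 of 6 strain and digit classes. In the other, N2 with digit 1, only 1 animal stood for 1 egg/μL and it was listed at 0. Averaging animals by digit gave -0.77 (adjusted p = 0.708), and the call with both strains was also lost with detected genes as a covariate (-1.86, adjusted p = 0.073) and without name digit 3 (-1.59, adjusted p = 0.236).

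Taken by strain, *fog-2* alone called 3 *ttr* genes between 100 and 1 egg/μL, *ttr-15* and *ttr-5* higher and *ttr-28* lower, where 6.74% of all genes passed (5.64% higher and 1.1% lower). The 3 are 6.25% of the members, close to that share. None was called with animals averaged by name digit, where 2 of all genes were called higher and 13 lower. With the number of detected genes as a covariate *ttr-5* was not called (1.18, adjusted p = 0.0511). Over all genes that fit called 76 higher and 110 lower. After quantile normalization 207 genes were called higher and 178 lower, against 927 and 181 before. The median change was 0.35 over the *ttr* genes and 0.27 over all genes. N2 alone called none of the 48 (limma), where 0.249% of all genes passed (13 higher and 28 lower). At an unadjusted p under 0.05 were 9 *ttr* genes in N2, all of them higher at 100 eggs/μL (*ttr-3*, *ttr-4*, *ttr-15*, *ttr-17*, *ttr-30*, *ttr-41*, *ttr-53*, *ttr-54* and *ttr-59*), where 10.9% of all genes were. The split of that 10.9% by direction is not given. A positive change in N2 was seen for 64.6% of the members and 63.9% of all genes. Of the 9, *ttr-4* and *ttr-30* were each above 0 in only 2 of 13 N2 animals at 1 egg/μL. The smallest adjusted p among these 9 was 0.315. No *ttr* gene differed between the strains in its change (interaction, limma), as none of all genes did (0.0%), and 4 (*ttr-8*, *ttr-17*, *ttr-46* and *ttr-50*) had an unadjusted p under 0.05, against 6.77% of all genes.

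The sign of the change was shared by the strains for 34 of the 48 genes, 27 of them higher and 7 lower. This is 70.8% of the members, and 66.0% of all genes shared their sign. The widest gap among the genes at an unadjusted interaction p under 0.05 was that of *ttr-50*, with 1.97 (SE 0.75) in *fog-2* and -0.94 (SE 0.93) in N2, a difference of 2.90 (SE 1.22, adjusted p = 0.677). *ttr-8* had an interaction of 2.40 (SE 0.86) with the smallest p of the family (adjusted p = 0.607). In *fog-2* its lowest, median and highest levels went from 0.0, 15.8 and 78.8 tpm at 1 egg/μL to 3.78, 44.4 and 204 tpm at 100 eggs/μL, and in N2 from 0.0, 8.43 and 29.6 tpm to 0.0, 2.75 and 44.2 tpm. Both were picked for these values and neither interaction passed.

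**Figure D3:**
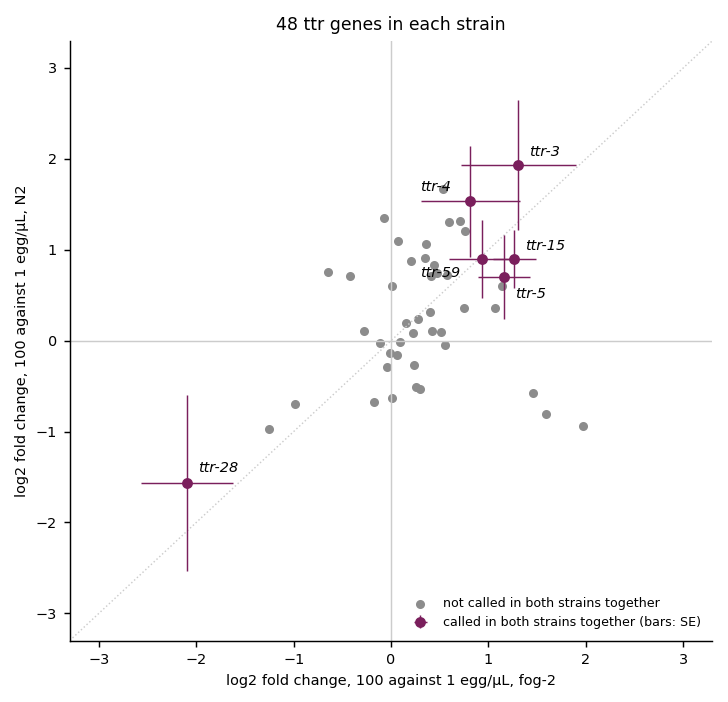
Log2 fold change of the 48 tested *ttr* genes between 100 and 1 egg/μL in *fog-2* (horizontal) and N2 (vertical), with the 6 genes called in both strains together in purple (bars, SE) and the dotted line at equal change. *ttr-28* lies low on both axes at -2.10 and -1.57, the 5 genes called higher lie in the upper right, and 34 genes (70.8%) share their sign, as 66.0% of all genes did.

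Over all 4 densities, the slope per 10-fold rise in density passed for the same 3 genes in *fog-2* (80 animals): *ttr-15* rose by 0.54 (SE 0.10, limma, adjusted p = 0.000305), *ttr-5* by 0.51 (SE 0.13, adjusted p = 0.00809), and *ttr-28* had a slope of -1.22 (SE 0.27, adjusted p = 0.00174). Of all genes 8.38% passed (7.23% higher and 1.15% lower), and quantile normalization moved these calls from 1189 higher and 189 lower to 355 and 197. In N2 none of the 48 passed and 12 had an unadjusted p under 0.05, where 1.19% and 16% of all genes did (93 higher and 103 lower, or 49 and 133 after quantile normalization). The N2 slopes of the 3 genes were 0.37, 0.30 and -0.91. Mean log2 levels went up at every step for 2 genes in *fog-2* (*ttr-3* and *ttr-15*) and 5 in N2 (*ttr-3*, *ttr-5*, *ttr-32*, *ttr-47* and *ttr-54*), and down at every step for 1 in each strain (*ttr-10* and *ttr-8*). These counts were not made over all genes, and some steps were small, such as 0.011 for *ttr-32* and 0.012 for *ttr-3* in N2.

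Means of some members peaked inside the series. The counts in the next sentence were not made over all genes, so they describe the members only. The density with the highest mean log2 level was 5 eggs/μL for 20 of 48 genes in *fog-2* and 22 in N2, 100 eggs/μL for 11 and 19, 20 eggs/μL for 14 and 3, and 1 egg/μL for 3 and 4. The steps between neighboring densities were therefore tested over the animals of both strains, all from 1 fit with strain and density as factors.

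Between 1 and 5 eggs/μL, 6 *ttr* genes rose and none fell: *ttr-50*, *ttr-2*, *ttr-18*, *ttr-41*, *ttr-59* and *ttr-15*. These are 12.5% of the members, and 1.02% of all genes passed (0.809% higher). Over all genes 133 were called higher and 34 lower, and after quantile normalization 75 and 43. A positive change was seen for 46 of 48 members (95.8%), against 65.3% of all genes, and the median change was 0.43 against 0.13. No test of the list was made. The count of 6 shrank to 3 with no filter on low values, to 1 without the animals of name digit 3 (*ttr-50*), to 2 with quantile normalization (*ttr-15* and *ttr-50*) and to 0 with animals averaged by name digit. Over all genes the same fits, in this order, called 92 higher and 22 lower, 31 and 6, 75 and 43, and 26 and 4. The glia markers, whose summed medians were also higher at 5 than at 1 egg/μL, had no call at this step, and their part in it was not tested. Apart from *ttr-15* and *ttr-59*, the genes named at this step, and the neighbors of called genes above, were picked after their values were seen.

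*ttr-2*, beside *ttr-3* on chromosome III, had lowest, median and highest levels in *fog-2* of 0.0, 4.54 and 58.2 tpm at 1 egg/μL and 3.01, 15.9 and 55.0 tpm at 5 eggs/μL. In N2 they were 0.0, 23.7 and 136 tpm and 0.0, 57.8 and 395 tpm. It was above 0 in 9 of 14 and 22 of 22 *fog-2* animals, and the ranges overlapped. The step was 1.78 (SE 0.48, limma, adjusted p = 0.033), and the change from 1 to 100 eggs/μL was 1.46 in *fog-2* and -0.57 in N2, neither of which passed. The step did not pass with no filter (adjusted p = 0.0565), a pseudocount of 10 (0.82, adjusted p = 0.103), quantile normalization (1.64, adjusted p = 0.0793) or without name digit 3 (adjusted p = 0.211).

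*ttr-41* and *ttr-18*, both on chromosome II, had steps of 1.21 (SE 0.32, limma, adjusted p = 0.0296) and 1.51 (SE 0.42, adjusted p = 0.0443). Medians of *ttr-41* went from 38.8 to 73.1 tpm in *fog-2* and from 35.9 to 85.1 tpm in N2. Those of *ttr-18* went from 11.8 to 23.8 tpm and from 6.94 to 27.8 tpm, and at 100 eggs/μL they were 12.4 and 19.7 tpm. Both steps were lost with quantile normalization (1.03, adjusted p = 0.06, and 1.30, adjusted p = 0.133). That of *ttr-18* was also lost with no filter (adjusted p = 0.0742), a pseudocount of 0.1 (2.09, adjusted p = 0.0868) and detected genes as a covariate (1.4, adjusted p = 0.0673). From 1 to 100 eggs/μL *ttr-41* had a change of 1.00 (adjusted p = 0.0563), and it passed there without the 2 N2 animals that stood apart (1.16, adjusted p = 0.0132). *ttr-59* had a step of 0.89 (adjusted p = 0.0354) and *ttr-15* of 0.79 (adjusted p = 0.0105).

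**Figure D4:**
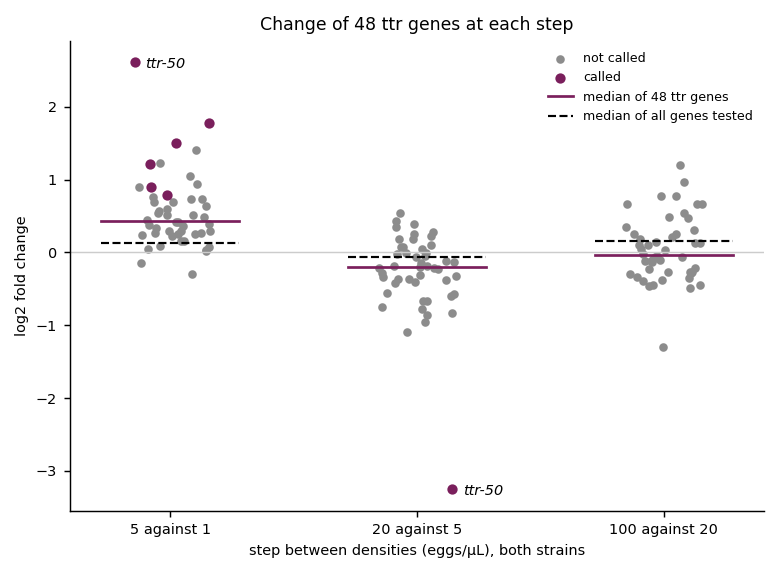
Log2 fold change of the 48 *ttr* genes at each step between densities with both strains together, with called genes in purple, the members' median as a solid line and the median of all genes tested as a dashed line. At the first step 46 of 48 genes lie above 0 and the members' median is 0.43, and *ttr-50* lies apart at 2.61 and then at -3.25.

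*ttr-50* (F58B3.9, IV, 11640047 to 11641015) peaked at 5 eggs/μL. Its lowest, median and highest levels in *fog-2* were 0.0, 6.16 and 29.4 tpm at 1 egg/μL, 4.99, 46.9 and 236 tpm at 5, 0.0, 2.50 and 116 tpm at 20, and 0.0, 33.8 and 580 tpm at 100 eggs/μL. In N2 they were 0.0, 32.4 and 85.1 tpm, 0.0, 117 and 1454 tpm, 0.0, 11.3 and 139 tpm, and 0.0, 12.1 and 607 tpm. All 22 *fog-2* animals at 5 eggs/μL were above 0, while the other groups reached down to 0. The step up from 1 to 5 eggs/μL was 2.61 (SE 0.60, limma, adjusted p = 0.00637) and the step down to 20 eggs/μL was -3.25 (SE 0.55, adjusted p = 3.09e-05), the one *ttr* call at that step, where 0.572% of all genes passed (0.547% lower).

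The level of *ttr-50* also moved with the digit in the animals' names. In N2 at 5 eggs/μL the median was 653 tpm for digit 1 (8 animals), 24.7 tpm for digit 2 (7 animals) and 118.5 tpm for digit 3 (7 animals), and 4 of the digit 1 animals held 1084 to 1454 tpm. At 100 eggs/μL 7 of 8 N2 animals of digit 2 were at 0 and the eighth at 2.29 tpm. Digit 2 animals were the lower ones at each N2 density by the median. Within digits the step from 1 to 5 eggs/μL was still positive in 6 of 6 strain and digit classes (1.66 to 3.89) and the step from 5 to 20 negative in 6 of 6 (-4.15 to -1.51). With animals averaged by digit neither step passed (2.50, adjusted p = 0.323, and -2.96, adjusted p = 0.513). Since *ttr-50* shares exon sequence with *rbm-17* on the other strand, a splicing factor gene, reads of the 2 genes there cannot be told apart.

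**Figure D5:**
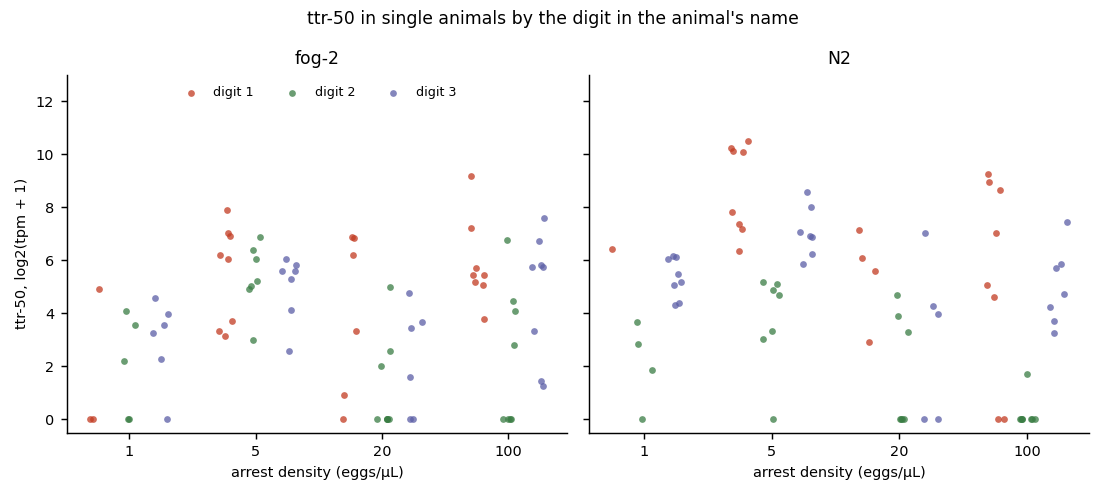
Level of *ttr-50* as log2(tpm + 1) in single *fog-2* (left) and N2 (right) animals at the 4 densities, colored by the digit that follows the density in the animal's name. At 5 eggs/μL in N2 the digit 1 animals (79.8 to 1454 tpm) lie above all digit 2 animals (0.0 to 35.0 tpm), and at 20 eggs/μL most digit 2 animals of both strains are at 0.

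Between 20 and 5 eggs/μL 35 of 48 genes had a negative change, with a median of -0.20 against -0.06 over all genes. A positive change was seen for 27.1% of the members and 41.9% of all genes, and of the members only *ttr-50* passed. Between 100 and 20 eggs/μL none of the 48 passed (limma) and 6 had an unadjusted p under 0.05, where 8.0% and 19.4% of all genes did (1274 called higher and 41 lower, or 158 and 30 after quantile normalization). The median change was -0.03 over the *ttr* genes and 0.15 over all genes, and 47.9% and 65.1% were positive. *ttr-28* came nearest, with -1.30 (SE 0.47, adjusted p = 0.068), and passed with a pseudocount of 0.1 (-1.59, adjusted p = 0.0465).

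The 3 genes with the highest levels varied least from animal to animal. *ttr-16* ranged from 2418 to 7665 tpm over the 80 *fog-2* animals and from 3457 to 12710 tpm over the 74 N2 animals, with medians of 4115, 4146, 4075 and 4307 tpm in *fog-2* and of 6470, 6146, 5902 and 5706 tpm in N2 from 1 to 100 eggs/μL. Its SD on the log2 scale within groups was 0.39, the smallest among the 41 genes with a mean of 10 tpm or more, followed by *ttr-24* (0.68) and *ttr-15* (0.77). From 1 to 100 eggs/μL the log2 change of *ttr-16* was 0.16 (SE 0.11, limma, adjusted p = 0.414) and that of *ttr-24* was 0.04 (SE 0.17, adjusted p = 0.907). *ttr-50* (SD 2.50) and *ttr-28* (SD 2.21) varied most between animals of 1 group. The SD tended to be larger for members of lower level, such as 2.02 for *ttr-3* with a mean of 16.3 tpm. Genes of like level outside the family were not set beside these SDs.

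Of the other highest genes, none was called in a comparison of densities. Between 1 and 100 eggs/μL the log2 change was 0.30 (SE 0.32) for *ttr-26*, -0.16 (SE 0.36) for *ttr-21* and -0.12 (SE 0.25) for *ttr-33*, beside those of *ttr-27* and *ttr-29* given above. *ttr-33*, the gene with a role in dopaminergic neurons, had medians of 405, 550, 494 and 407 tpm in *fog-2* and of 309, 553, 302 and 211 tpm in N2 from 1 to 100 eggs/μL. It was thus highest by the median at 5 eggs/μL in both strains, with a step of 0.77 (SE 0.26, limma, adjusted p = 0.153) that did not pass.

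*ttr-52*, the bridge to CED-1, was near the lower limit. It was above 0 in 3 of 14, 7 of 22, 6 of 20 and 10 of 24 *fog-2* animals and in 1 of 13, 3 of 22, 0 of 16 and 4 of 23 N2 animals from 1 to 100 eggs/μL, with 49.1 tpm as the highest value. With so few animals above 0 at 1 egg/μL, *ttr-52* passed the filter on low values mainly through the animals at 100 eggs/μL. Its change between these densities was 0.56 (SE 0.30, limma, adjusted p = 0.234). *ttr-11* was above 0 in 9 animals in all, 5 *fog-2* and 4 N2, and was not tested.

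The genes that act with TTR-52 in clearing dying cells, or in the fusion of cut axons, were given as a list of 18, and 0 passed between 1 and 100 eggs/μL in both strains, in either strain alone or between 1 and 5 eggs/μL (limma), where 12.4%, 6.74%, 0.249% and 1.02% of all genes did. At an unadjusted p under 0.05 were 3 genes with both strains (*ina-1*, *ced-8* and *ced-7*), 3 in *fog-2*, 1 in N2 and 1 between 1 and 5 eggs/μL, against 25.8%, 22.1%, 10.9% and 10.6% of all genes. The median change over the list was 0.13 with both strains, against 0.24 over all genes. The smallest adjusted p were those of *ina-1*, an integrin alpha chain (0.77, SE 0.36, adjusted p = 0.149), *ced-8*, of the XK scramblase family (0.70, SE 0.32, adjusted p = 0.149), *ced-7*, an ABC transporter (0.66, SE 0.32, adjusted p = 0.169), and *ced-5*, the worm DOCK180 (0.54, SE 0.27, adjusted p = 0.195). Those 4 and no others of the list had an adjusted p under 0.2. For *ced-1*, named here as the receptor of TTR-52, the change was 0.03 (SE 0.21, adjusted p = 0.957).

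The family shares its fold with the 5-hydroxyisourate hydrolases, enzymes of urate breakdown, which in the worm have the genes *R09H10.3* and *ZK697.8*. *ZK697.8* was higher at 100 than at 1 egg/μL by 1.41 (SE 0.35, limma, adjusted p = 0.00516), with 1.54 (adjusted p = 0.0626) in *fog-2* and 1.28 (adjusted p = 0.32) in N2 alone. *R09H10.3* had a change of -0.39 (SE 0.29, adjusted p = 0.422).

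Levels of some members went up and down together from animal to animal. Over the 80 *fog-2* and 74 N2 animals, after each group's mean was taken out, 820 pairs of the 41 genes with a mean of 10 tpm or more were compared, and 7 pairs had a Pearson's r of 0.7 or more. They joined *ttr-21*, *ttr-27*, *ttr-29*, *ttr-39* and *ttr-49*, of which *ttr-39* is on chromosome IV and the others on V, and, as a pair of direct neighbors, *ttr-24* and *ttr-25*. For *ttr-21* and *ttr-27* r was 0.768 and rho 0.790, with 0.771 in *fog-2*, 0.768 in N2 and 0.777 without the 2 animals farthest from the median of the first gene. For *ttr-24* and *ttr-25* r was 0.763 and rho 0.758, with 0.638 in *fog-2* and 0.856 in N2, and 0.749 without 2 animals chosen the same way. Of the 7 pairs, 5 reached 0.7 in each strain. A permutation p of 1e-05, the smallest that 100000 resamples can give, was reached by r and rho of both pairs (adjusted p = 0.000108 and 9.7e-05). Over the 820 pairs the median r was 0.122. At a permutation adjusted p under 0.05, r was positive for 226 pairs and negative for 15. Of these 15, *ttr-23* and *ttr-25* had an r of -0.432 and a rho of -0.477 (p = 1e-05 each), with -0.490 in *fog-2*, -0.395 in N2 and -0.428 without 2 animals. The pairs named here were chosen for their r, and animals also share library content, which was not taken out. No such counts were made over pairs of all genes, so the counts of pairs describe the members only.

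*ttr-28* went with its neighbor *ttr-29* from animal to animal (r = 0.671, rho = 0.657, permutation p = 1e-05 each, 0.598 in *fog-2*, 0.705 in N2, and 0.670 without 2 animals) although only *ttr-28* was called with density. Adjusted p over the 820 pairs were 0.000108 for r and 9.7e-05 for rho.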

How the data were processed

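Single arrested L1s were sequenced with Smart-Seq2 cDNA and Nextera libraries. Reads from rRNA and PCR duplicates had been removed before abundance was estimated with RSEM. Bowtie and the build ce11 are named in the submitters' processing notes, and tool versions are not given in the sources used here. The authors deposited the result as tpm values for 47639 transcript rows per strain, and these expression tables hold no read counts; read totals per animal that the study lists were not used here. Tpm sets each animal to the same total, so a rise of some genes lowers others. Of 154 columns, 146 matched 1 labelled animal and 8 *fog-2* columns only their strain and density, and 0 columns were left out.

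Rows were named from RefSeq (46165 rows) or Ensembl (1182 rows) for WBcel235, the assembly of ce11, and 292 rows had no annotation. Isoform rows were added per gene. limma 3.58.1 with a mean-variance trend was run in R 4.3.3 on log2(tpm + 1) of the 16445 genes at 1 tpm or more in at least 13 of 74 animals. P-values were adjusted by Benjamini-Hochberg over all of them, with a threshold of 0.05. The fits were 100 against 1 egg/μL with both strains and in each, the strain by density interaction, slopes over log10 density and the 3 steps. The test was also tried on data in which each gene's deviations from its group means were shuffled over animals. Such data hold no shared tube or library content, so the trial cannot show false calls from these. Summaries and permutation tests used pandas 2.3.3, numpy 2.4.6 and scipy 1.17.1 under Python 3.11.15, and plots matplotlib 3.10.9.

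Genes given with values are those called between 100 and 1 egg/μL, in the interaction or in a slope, the 8 highest by mean, *ttr-52*, *ttr-11*, *ttr-33* and *ttr-15*, and 4 engulfment genes; exceptions are named as such. Members, lists and tests were chosen with earlier results of these data known. The 11 alternatives changed the pseudocount, filter, normalization, covariates, isoform sums, animals, name digit handling, variance model and threshold; 1 more, without 2 N2 animals at 100 eggs/μL whose median correlation with their group was under 0.55, was added after seeing the data.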

Additional observations from a re-analysis of the deposited data

How the results depend on the processing

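No value given for a single gene or list changed its sign while called. With both strains, the 6 calls between 100 and 1 egg/μL became 2 with the number of detected genes as a covariate (*ttr-4* and *ttr-15*), 1 without animals of name digit 3 (*ttr-15*), 2 with means by name digit (*ttr-3* and *ttr-15*) and 1 at an adjusted p under 0.01 (*ttr-15*). Over all genes, the 1701 calls higher and 338 lower became 156 and 281 with this covariate. They were 134 and 55 without name digit 3, and 501 and 87 with means by name digit. In *fog-2*, means by name digit left 0 of 3 calls and 1 of 3 slopes (*ttr-28*). Over all genes this fit called 2 higher and 13 lower, and for slopes 258 and 60. With the number of detected genes as a covariate *fog-2* lost the call of *ttr-5* and kept those of *ttr-15* and *ttr-28*. Over all genes the *fog-2* calls then went from 927 higher and 181 lower to 76 and 110. Between 1 and 5 eggs/μL the 6 calls became 3 with no filter, 2 with quantile normalization, 1 without animals of name digit 3, 0 with means by name digit and 1 at an adjusted p under 0.01. All genes went from 133 higher and 34 lower to 92 and 22 with no filter and 75 and 43 with quantile normalization. Without name digit 3 they went to 31 and 6, and with means by name digit to 26 and 4. The 1 call between 5 and 20 eggs/μL became 0 with means by name digit, and the 0 calls between 20 and 100 eggs/μL became 2 with a pseudocount of 0.1, 3 with no filter and 1 without animals of name digit 3. Between 5 and 20 eggs/μL, 4 of all genes were called higher and 90 lower, and 0 and 5 with means by name digit. Between 20 and 100 eggs/μL, the 1274 higher and 41 lower became 1474 and 38, 1805 and 45, and 976 and 23 in the same order. The cause was not tested.

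The name digit was also used as a replicate block. Across densities, same-digit classes had a median r of 0.0882 in *fog-2* and 0.0452 in N2, against -0.0392 and -0.024 for different digits. Same-digit classes were thus slightly more alike, but not every pair was over 0.1 (lowest -0.0948 and -0.0719), and the digits were not taken to pair the animals. With the block 4 *ttr* genes were called between 100 and 1 egg/μL, without *ttr-28* (-1.45, adjusted p = 0.07) and *ttr-4* (1.22, adjusted p = 0.0511). Over all genes 1159 were called higher and 278 lower in this fit. Between 1 and 5 eggs/μL it left 4 of 6 calls, without *ttr-2* (1.67, adjusted p = 0.0737) and *ttr-18* (1.53, adjusted p = 0.0552).

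The expression tables hold no read counts and no counting interval is given, and low genes such as *ttr-3*, *ttr-4* and *ttr-52* rest on how many animals had any reads. Digit 1 at 1 egg/μL in N2 holds 1 animal.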
